A study of Bos taurus with 11 samples.

Results

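The MMP, ADAM, ADAMTS and TIMP genes encode the metalloproteinases that cut the extracellular matrix and shed proteins from cell surfaces, and the inhibitors of those enzymes. Of the 16279 genes in the deposited table, 50 carried a symbol made of MMP, TIMP, ADAM or ADAMTS, a number and at most 1 further letter. They comprised 16 MMP, 3 TIMP, 13 ADAM and 18 ADAMTS genes, and the rule reads symbols only. The study measured messenger RNA by sequencing in 3 regions of the udder of Holstein heifers, which were 10 to 12 months old and received no treatment. The labels name the regions parenchyma, stroma close to it and stroma far from it. Heifers 1, 3, 4 and 5 each gave parenchyma and far stroma (n = 4), whereas close stroma was given by 3 of them, heifers 3, 4 and 5 (n = 3). All groups share breed, age and the absence of treatment, so the region is the only labelled difference, and the labels give no distance between regions. TIMP1, MMP1, MMP3, MMP8 and ADAMTS13 stood under no symbol in the table and were not analysed here.

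Matrix metalloproteinases (MMPs) are zinc enzymes made as inactive precursors, which are secreted or held at the cell surface and opened by other proteases. ADAM proteins are membrane-bound and release growth factors, cytokines and adhesion molecules from cells, whereas ADAMTS enzymes are secreted, bind the matrix, and trim proteoglycans and procollagens. TIMP proteins block the active site of MMPs and, in the case of TIMP3, also that of several ADAM and ADAMTS enzymes. In the growing udder of a heifer, ducts extend into a fat pad of adipocytes and connective tissue, a process known to involve remodelling of matrix around the ducts.

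Values are normalised counts, that is, read counts divided by 1 size factor per sample, and are listed in the order of heifers 1, 3, 4 and 5 (3, 4 and 5 for close stroma). Libraries held 7274474 to 11156909 reads. The sum of 6 luminal epithelium markers (KRT8, KRT18, KRT19, EPCAM, CLDN3 and CLDN4) ran from 159 to 283 in far stroma, from 9988 to 19344 in the close stroma libraries, and from 18844 to 24646 in parenchyma. The libraries labelled close stroma thus held epithelial messages as well as those of fat. The basal marker TP63 had no read in the 4 far stroma libraries and had reads in the other 7. The sum of 6 adipocyte markers, all of them lower in parenchyma than in far stroma, was 176758.5 to 261489 in far stroma, 155166, 43871 and 75304 in close stroma (heifers 3, 4 and 5), and 722 to 1030.1 in parenchyma. Of 5 blood endothelium markers 4 were lower, with sums of 20617 to 30387 in far stroma, 10782 to 23440.3 in the close stroma libraries and 6165 to 7965 in parenchyma. Of 3 mast cell markers 2 were lower, with sums of 727 to 1462, 716 to 1085 and 562.5 to 951. KIT, which did not pass, made up most of these sums and averaged 700, 759 and 716. CPA3 averaged 304, 109 and 17.4, and MS4A2 36.9, 9.97 and 1.28. The sum of 6 fibroblast markers, 4 of them lower, was 177292 to 371161, 43737 to 167597 and 51856 to 148984 in that order of regions. In bulk tissue, fewer cells of a type and less RNA per cell cannot be told apart, and the part that these markers have in the results below was not tested.

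In parenchyma against far stroma, all 3 TIMP genes were lower. Of the tested enzyme genes, 5 of 12 MMP, 6 of 12 ADAM and 6 of 17 ADAMTS genes were lower, and 2, 3 and 5 were higher, MMP11, MMP25, ADAM12 and ADAM28 among them. Of the 50 genes, 44 reached a mean of 10 in at least 1 region and were tested with limma on log2(value + 1). At an adjusted p under 0.05, 10 were higher and 20 lower in parenchyma, and 14 did not pass. The shares, 68.2% in all, 22.7% higher and 45.5% lower, stand beside 50.1%, 26.1% and 24% of all 14596 genes tested. The median log2 difference was -0.88 over the 44 genes and 0.06 over all genes. Values of the 2 regions did not overlap for 25 of the 44 genes, or 56.8%, against 45.5% of all genes. With each library scaled to its total, which shifted the median of all genes from 0.06 to 0.49, 16 genes were higher and 18 lower (43.5% and 14.3% of all genes), so that 47.1% of the called genes were higher in place of 33.3%.

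**Figure D1:**
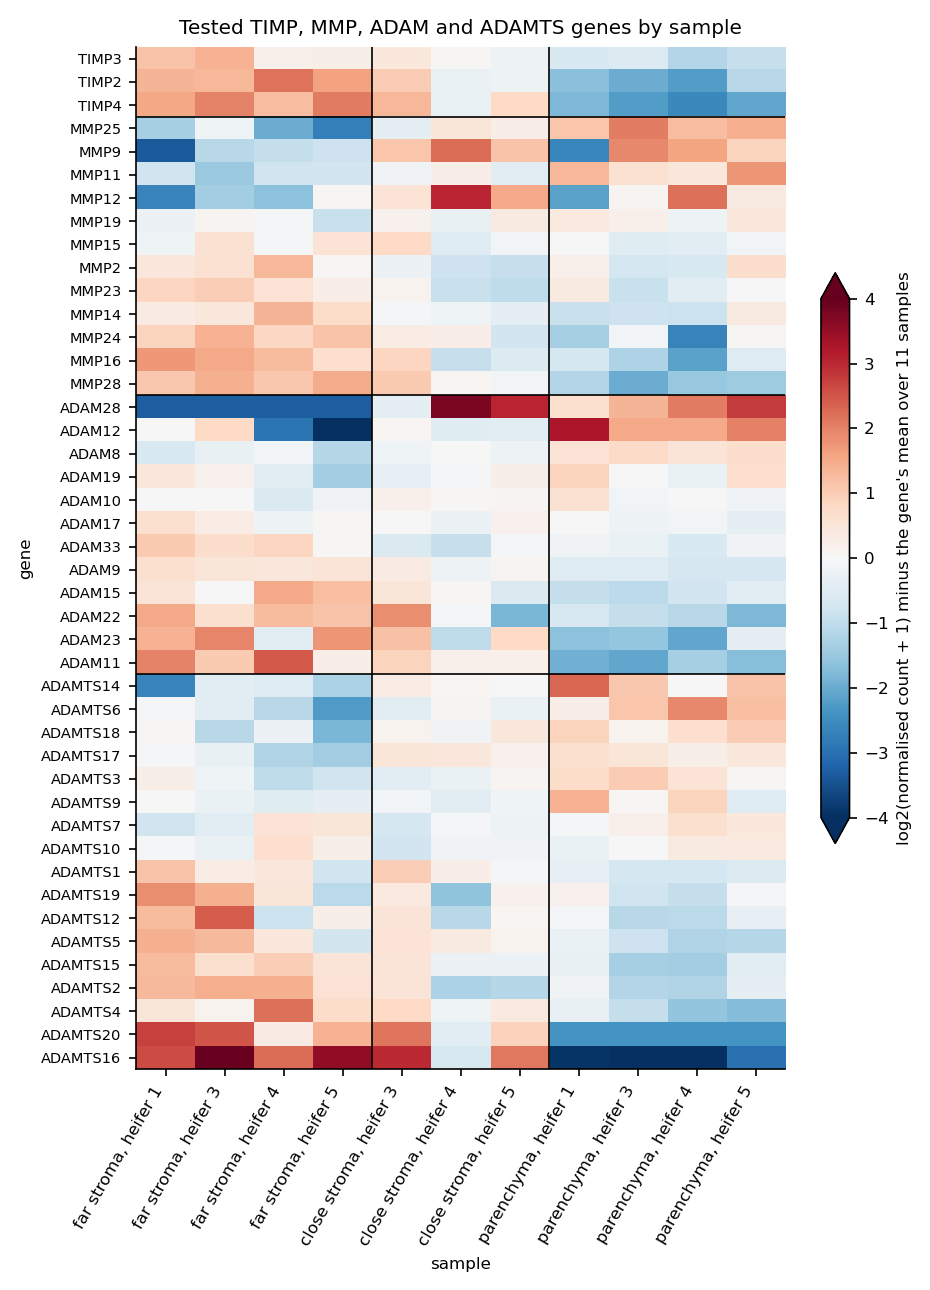
Heat map of the 44 tested genes (rows, grouped as TIMP, MMP, ADAM and ADAMTS and ordered within each family by their difference between parenchyma and far stroma) in the 11 samples (columns, by region and heifer). Colour is log2(normalised count + 1) minus the mean of that gene over the samples, and saturates at 4 in either direction. The 3 TIMP rows are above their mean in all far stroma samples and below it in all parenchyma samples.

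All 3 inhibitors were lower in parenchyma than in far stroma, against 24% of all genes. TIMP2, which blocks MMP2 and also docks its precursor on the cell surface, was at 19338, 18713, 33545 and 23102 normalised counts in far stroma, at 15181, 6173 and 6513 in close stroma, and at 2337, 1889, 1596 and 3473 in parenchyma. The 3 regions did not overlap for this gene (log2 difference of parenchyma against far stroma -3.37 ± 0.33 SE, limma adjusted p = 4.13e-06). TIMP4, an inhibitor found in few tissues, was at 2304, 3112, 1831 and 3306 in far stroma, at 1956, 649.7 and 1350.3 in close stroma, and at 225, 166, 130.1 and 184 in parenchyma. Every parenchyma value lay below every stromal value (-3.88 ± 0.31, limma adjusted p = 8.32e-07). TIMP3, the inhibitor that stays bound to the matrix, was at 4685, 5495, 2409.5 and 2490.2 in far stroma, at 2837, 2175 and 1839 in close stroma, and at 1378, 1459, 941 and 1125 in parenchyma. It was lower in parenchyma than in far stroma in 4 of 4 heifers (-1.54 ± 0.27, limma adjusted p = 5.23e-04). All 3 calls held under each of the settings tried, including library-total scaling.

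**Figure D2:**
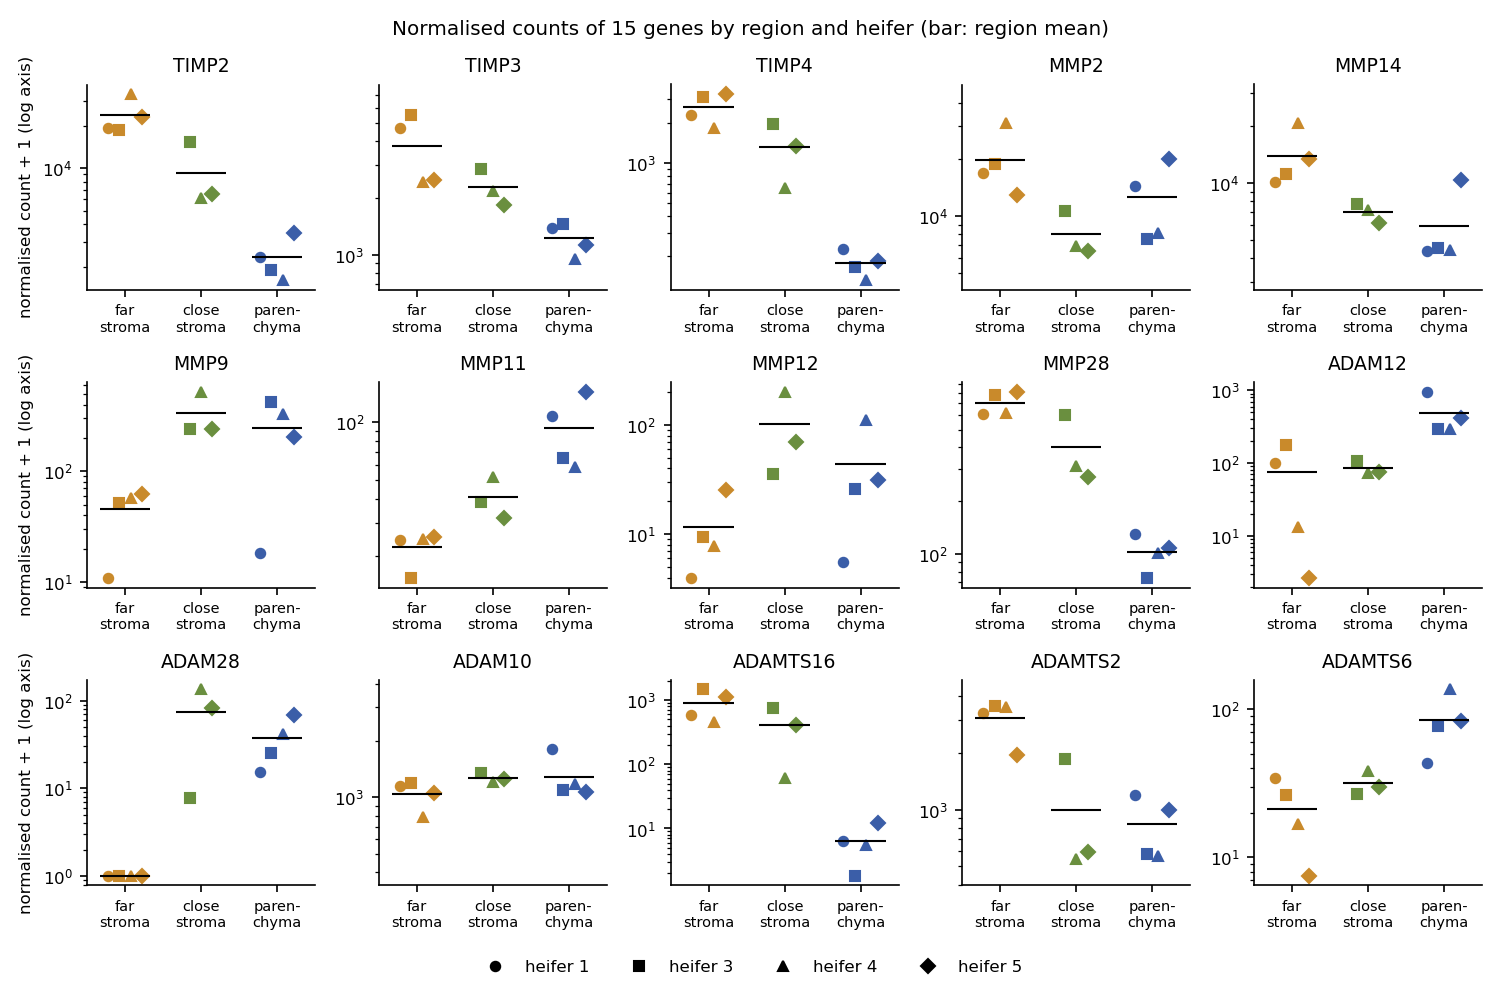
Normalised counts plus 1 (log axis, with its own scale in each panel) of 15 genes in far stroma, close stroma and parenchyma, with 1 symbol per heifer and a bar at the mean of each region. TIMP2, TIMP4, MMP28 and ADAMTS16 step down towards parenchyma, MMP11, ADAM12 and ADAMTS6 are higher there, and MMP9, MMP12 and ADAM28 reach their highest values in close stroma.

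The ratios of enzyme to inhibitor counts differed between regions. MMP2, or gelatinase A, which degrades collagen IV and denatured collagen, was at 16886, 18936, 31094 and 12943 in far stroma, at 10674, 6954 and 6533 in close stroma, and at 14448, 7593, 8183 and 20140.3 in parenchyma. Parenchyma and far stroma overlapped for MMP2 (-0.71 ± 0.35, limma adjusted p = 0.11, lower in 3 of 4 heifers), and the difference passed only without the parenchyma of heifer 5 (-0.97, adjusted p = 0.0337). The fibroblast sum was also highest in the parenchyma of heifers 1 and 5 (148984 and 143817.5, against 51856 and 68270.5 in heifers 3 and 4). In close stroma both MMP2 and the sum were highest in heifer 3. In far stroma the sum was highest in heifer 3 (371161), whereas MMP2 was highest in heifer 4, where the sum was 255449.6. A link between MMP2 and this sum was not tested. The log2 ratio of MMP2 to TIMP2 averaged -0.28 ± 0.38 in far stroma, -0.11 ± 0.35 in close stroma and 2.38 ± 0.27 in parenchyma (SD). The lowest parenchyma ratio, 2.01, lay above the highest stromal ratio, 0.17. These ratios use gene counts that are not corrected for transcript length, so only their change between regions can be read, and they were not tested.

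MMP14, the membrane-type enzyme that activates the MMP2 precursor in a complex with TIMP2, was at 10059, 11125, 20688 and 13414 in far stroma, at 7765, 7173 and 6105 in close stroma, and at 4361, 4543, 4414 and 10344 in parenchyma. It was lower in parenchyma than in far stroma in 4 of 4 heifers (-1.28 ± 0.30, limma adjusted p = 0.0037), although heifer 5 overlapped with the lowest far stroma sample. The log2 ratio of MMP14 to TIMP2 averaged -0.79 ± 0.11 in far stroma, -0.28 ± 0.61 in close stroma and 1.30 ± 0.30 in parenchyma. For the shedding enzyme ADAM17 and its inhibitor TIMP3 the ratio averaged -2.87 ± 0.38, -2.45 ± 0.44 and -1.69 ± 0.30. All parenchyma values lay above all far stroma values, but the close stroma of heifer 5 (-1.95) lay above the parenchyma of heifer 3 (-2.01).

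**Figure D3:**
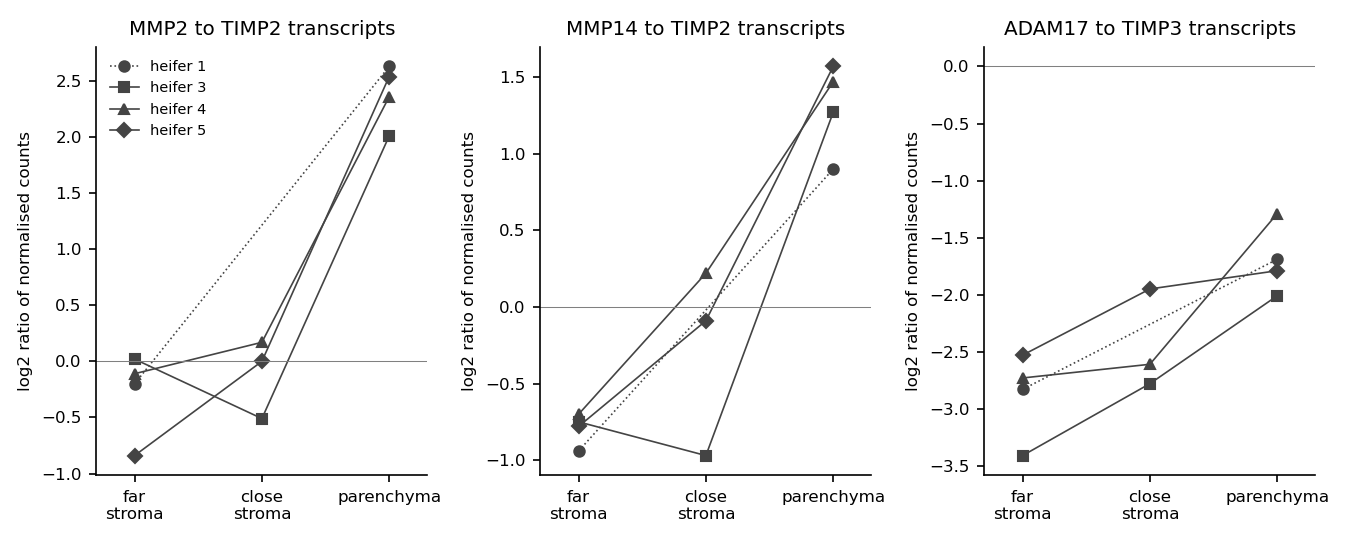
Log2 ratio of normalised counts of MMP2 to TIMP2, MMP14 to TIMP2 and ADAM17 to TIMP3 in far stroma, close stroma and parenchyma. Each line joins the samples of 1 heifer, and the dotted line is heifer 1, which gave no close stroma. All 3 ratios were higher in parenchyma than in far stroma in each of the 4 heifers, with means of 2.38 against -0.28, 1.30 against -0.79 and -1.69 against -2.87.

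MMP9, or gelatinase B, is made largely by leukocytes and by activated epithelium. It was at 9.79, 50.4, 56.4 and 61.3 in far stroma, at 239.7, 522 and 242 in close stroma, and at 17.3, 417, 331 and 203 in parenchyma. Heifer 1 was lowest in both of its regions, and parenchyma and far stroma overlapped because of it, although parenchyma was the higher within each heifer. With all samples the difference did not pass (2.01 ± 0.86, limma adjusted p = 0.0692, higher in 4 of 4 heifers). It passed with the heifer as a block (adjusted p = 0.00102), with edgeR (0.0155) and without the parenchyma of heifer 1 (3.02, adjusted p = 0.00111). LCN2, a secreted protein that binds MMP9, averaged 6.19 in far stroma, 1888 in close stroma and 1034 in parenchyma (parenchyma against far stroma 6.88 ± 0.91, limma adjusted p = 5.40e-05). None of 3 tested neutrophil markers passed, and the sum of 4 was 42.1 to 752 in far stroma, 132 to 302 in the close stroma libraries and 57.3 to 440.4 in parenchyma, with CXCR2 at 0 in 2 far stroma libraries.

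Among the other secreted MMPs, MMP11 was higher in parenchyma and MMP28 lower. MMP11, or stromelysin-3, known from fibroblasts next to remodelling epithelium, was at 23.5, 14.4, 23.7 and 24.2 in far stroma, at 37.4, 50.6 and 30.8 in close stroma, and at 106, 64.2, 57.05 and 143 in parenchyma. The 3 regions did not overlap for MMP11 (parenchyma against far stroma 1.99 ± 0.33, limma adjusted p = 3.28e-04). MMP28, or epilysin, an MMP described in epithelia and nerve, was at 612, 778, 616 and 814 in far stroma, at 605, 310.3 and 272 in close stroma, and at 129, 72.4, 101 and 108 in parenchyma. Here too no values were shared between regions (-2.79 ± 0.26, limma adjusted p = 2.68e-06). MMP12, the macrophage elastase, was at 2.94, 8.4, 6.77 and 24.2 in far stroma, at 34.5, 202 and 68.8 in close stroma, and at 4.52, 25.2, 110.5 and 30.2 in parenchyma. Close stroma held the highest MMP12 value in each of the 3 heifers that gave all regions, and parenchyma and far stroma overlapped (1.53 ± 0.84, limma adjusted p = 0.149). That difference passed with the heifer as a block (0.0424), with DESeq2 (0.026) and without the parenchyma of heifer 1 (2.29, adjusted p = 0.0248). The sum of 5 macrophage markers, 2 of them lower in parenchyma than in far stroma, was 5838 to 26099.7 in far stroma, 4534 to 6968 in the close stroma libraries and 5356 to 8713 in parenchyma.

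MMP23, an enzyme without the usual haemopexin domain, averaged 354 ± 73.2 in far stroma and 196 ± 71.9 in parenchyma (SD, n = 4 each, -0.91 ± 0.31, limma adjusted p = 0.0283). The call was lost without the far stroma of heifer 1 or 3 (0.0609 and 0.0709), without the parenchyma of heifer 3 or 4 (0.092 and 0.0698), and with library-total scaling (0.172). MMP19, a widely expressed member, averaged 224 ± 61.8 and 307 ± 57.8 and did not pass (0.48 ± 0.24, limma adjusted p = 0.118), but did with library-total scaling (0.90, adjusted p = 0.00748).

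The membrane-type enzymes went in both directions. MMP16 averaged 227 ± 65.5 in far stroma and 43.2 ± 18.6 in parenchyma (-2.44 ± 0.43, limma adjusted p = 4.80e-04). MMP24, best known from the nervous system, averaged 12.4 ± 2.46 and 2.97 ± 2.64 (-2.08 ± 0.59, limma adjusted p = 0.0113). MMP25, or leukolysin, which is anchored by a lipid and known from leukocytes, averaged 6.32 ± 5.66 in far stroma, 18.6 ± 5.61 in close stroma and 48.4 ± 15.5 in parenchyma (parenchyma against far stroma 3.02 ± 0.50, limma adjusted p = 2.94e-04). So 3 of 5 tested membrane-type genes were lower in parenchyma, MMP14 included, and MMP25 was higher. Of the 3, MMP24 reached the mean of 10 needed for testing only in far stroma, where it was highest. Of all genes tested, 24% were lower and 26.1% higher. MMP15 did not pass (1300.1 ± 360.2 against 912 ± 162, limma adjusted p = 0.159).

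Of 9 ADAM proteases, 3 were higher in parenchyma than in far stroma, 3 lower, and 3 did not pass, against 26.1% higher and 24% lower of all genes. ADAM12, or meltrin alpha, a shedding enzyme of mesenchymal cells, was at 101, 179, 12.4 and 1.61 in far stroma, at 107, 73.1 and 73.4 in close stroma, and at 959.9, 293, 294 and 418 in parenchyma. Far stroma was divided, with heifers 1 and 3 near the close stroma values and heifers 4 and 5 far below them, and all of it lay below parenchyma (3.93 ± 1.02, limma adjusted p = 0.0066). The size of this difference was 2.79 without the far stroma of heifer 5, 4.55 and 4.82 without that of heifers 1 and 3, and 2.73 and 2.74 with edgeR and DESeq2. ADAM28, known from lymphocytes, had no read in any far stroma library and was at 6.71, 133 and 80.6 in close stroma and at 14.3, 24.4, 40.1 and 67.75 in parenchyma. Set against a floor of 3 reads over the far stroma group, ADAM28 was at least 39.5-fold higher in parenchyma and at least 83.0-fold higher in close stroma. Such floors cover counting error only. ADAM28 averaged 73.5 in close stroma and 36.6 in parenchyma. All 4 T cell markers and all 4 B and plasma cell markers were higher in parenchyma than in far stroma. A link between ADAM28 and these markers was not tested. The T cell sum was 111 to 463 in far stroma, 1549 to 1775 in the close stroma libraries and 2866 to 3844 in parenchyma, and the B and plasma cell sum 79.2 to 373, 503 to 1459 and 1954 to 4111. ADAM8, a leukocyte enzyme, averaged 46.2 ± 13.8, 60.4 ± 5.37 and 102 ± 9.12 in the same order of regions (parenchyma against far stroma 1.17 ± 0.25, limma adjusted p = 0.00167).

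The ADAM proteases lower in parenchyma were ADAM9, ADAM15 and ADAM33. ADAM9, a shedding enzyme of many tissues, averaged 971 ± 62.0 in far stroma, 718 ± 124 in close stroma and 447 ± 29.6 in parenchyma (-1.12 ± 0.14, limma adjusted p = 3.30e-05). ADAM15, an ADAM with an integrin-binding disintegrin domain, averaged 2634 ± 1155 and 803 ± 147 in far stroma and parenchyma (-1.62 ± 0.31, limma adjusted p = 9.03e-04). ADAM33, known in human from mesenchymal cells of the airway, averaged 552 ± 148 and 279 ± 40.2 (-0.95 ± 0.24, limma adjusted p = 0.00513), and did not pass with library-total scaling (0.091).

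ADAM10, ADAM17 and ADAM19 did not pass. ADAM10, which cuts Notch receptors and E-cadherin, was at 1152, 1189, 790.01 and 1056 in far stroma, at 1341, 1209 and 1252 in close stroma, and at 1805, 1089, 1175 and 1061 in parenchyma. The regions overlapped except for close stroma over far stroma (parenchyma against far stroma 0.27 ± 0.19, limma adjusted p = 0.249), and the value passed only with library-total scaling (0.70, adjusted p = 0.0109). ADAM17, which releases tumour necrosis factor and amphiregulin, was at 657, 517, 363 and 429 in far stroma, at 411, 355 and 476 in close stroma, and at 426, 362, 385 and 325 in parenchyma. Its regions overlapped as well (-0.36 ± 0.19, limma adjusted p = 0.129, lower in 3 of 4 heifers), and it passed only without the far stroma of heifer 4 (-0.50, adjusted p = 0.0426). ADAM19, or meltrin beta, averaged 141 ± 66.9 and 204 ± 74.4 in far stroma and parenchyma (0.61 ± 0.37, limma adjusted p = 0.189) and passed only with library-total scaling (1.03, adjusted p = 0.0372). In mouse, amphiregulin shed by ADAM17 drives the growth of mammary ducts.

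All 3 tested ADAM genes whose proteins lack an active protease site were lower in parenchyma, against 24% of all genes. ADAM11 was at 70.5, 36.0, 97.1 and 20.97 in far stroma, at 32.6, 19.7 and 19.9 in close stroma, and at 3.77, 3.25, 6.24 and 4.58 in parenchyma (parenchyma against far stroma -3.19 ± 0.45, limma adjusted p = 9.44e-05). Parenchyma lay below every stromal sample. ADAM22 and ADAM23, which are adhesion receptors of the nervous system, averaged 21.3 ± 5.37 and 70.6 ± 37.0 in far stroma and 3.69 ± 1.43 and 10.3 ± 6.67 in parenchyma (-2.28 ± 0.64 and -2.58 ± 0.61, limma adjusted p = 0.0102 and 0.00363).

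ADAMTS16 had the largest difference of the 44 genes on the log2(value + 1) scale, on which ADAM28 and ADAMTS20, each without reads in 1 region, have no fixed size. The enzyme, for which fibronectin is a known substrate, was at 584, 1469, 453 and 1109.6 in far stroma, at 762, 60 and 408 in close stroma, and at 5.28, 0.81, 4.46 and 10.99 in parenchyma. Even the lowest stromal sample, the close stroma of heifer 4, stood above every parenchyma sample (parenchyma against far stroma -7.28 ± 0.74, limma adjusted p = 6.01e-06). In close stroma ADAMTS16 was highest in heifer 3 and lowest in heifer 4, which is also the order of the adipocyte sums (155166, 43871 and 75304 in heifers 3, 4 and 5). In far stroma and in parenchyma the orders differed. The far stroma sums were 176758.5, 183560, 238058 and 261489 in heifers 1, 3, 4 and 5. A link between the gene and these sums was not tested.

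Of 6 tested ADAMTS proteoglycanases, which cut aggrecan, versican and their relatives, 4 were lower in parenchyma than in far stroma. Lower calls made up 24% of all genes tested. ADAMTS1 and ADAMTS9 did not pass. ADAMTS5, an aggrecanase, was at 445, 414, 223 and 99.99 in far stroma, at 244, 214 and 184 in close stroma, and at 139, 92.7, 71.3 and 75.1 in parenchyma. The lowest far stroma sample overlapped with parenchyma (-1.46 ± 0.40, limma adjusted p = 0.00927). ADAMTS4, the other main aggrecanase, averaged 479.9 ± 357 and 107 ± 52.4 (-2.03 ± 0.43, limma adjusted p = 0.00187), and ADAMTS15 418 ± 100.5 and 132 ± 52.1 (-1.71 ± 0.29, limma adjusted p = 3.96e-04). ADAMTS20 had no read in any parenchyma library and 72 reads in far stroma, so that it was at least 34.1-fold lower in parenchyma against a floor of 3 reads over the group.

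ADAMTS1, which cuts versican, was at 2539.8, 1419.9, 1603 and 671 in far stroma, at 2308, 1402 and 1100.3 in close stroma, and at 929.7, 704, 711 and 785 in parenchyma. Heifer 5 alone had less in far stroma than in parenchyma, and with all samples the difference did not pass (-0.85 ± 0.34, limma adjusted p = 0.0527). It passed without the far stroma of heifer 5 (-1.21, adjusted p = 0.00318), without the close stroma of heifer 3 (0.0418), with the heifer as a block (0.019), and with edgeR and DESeq2 (0.0278 and 0.0102). ADAMTS9, a versican-cutting enzyme made by endothelium among other cells, averaged 181 ± 27.7 in far stroma and 341 ± 191 in parenchyma and did not pass (0.74 ± 0.33, limma adjusted p = 0.0825). It passed without the parenchyma of heifer 5 (1.06, adjusted p = 0.00965), with the heifer as a block (0.0462), with library-total scaling (0.0132), and with edgeR and DESeq2 (0.0387 and 0.0209).

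The procollagen N-propeptidases, which remove the amino-terminal extension from fibrillar procollagens, were divided. ADAMTS2 was at 3231, 3525, 3488 and 1940.2 in far stroma, at 1843, 545 and 593 in close stroma, and at 1188, 583, 569.6 and 993 in parenchyma. Far stroma exceeded all other samples (parenchyma against far stroma -1.90 ± 0.38, limma adjusted p = 0.00117). ADAMTS14 averaged 2.15 ± 1.69 and 15.1 ± 10.6 (2.35 ± 0.60, limma adjusted p = 0.00584), and ADAMTS3, which also acts on the lymphatic growth factor VEGFC, 11.4 ± 4.98 and 23.6 ± 6.42 (1.03 ± 0.37, limma adjusted p = 0.0357). Both rest on few reads. ADAMTS14 differed by 1.49 with heifers 3, 4 and 5 alone, and the ADAMTS3 call was lost without the far stroma of heifer 4 or 5 (0.0931 and 0.0833) or the parenchyma of heifer 1, 3 or 4 (0.0789, 0.105 and 0.0668).

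Of the remaining ADAMTS genes, 3 were higher in parenchyma than in far stroma, against 26.1% of all genes. ADAMTS6, a relative of the fibrillin-binding ADAMTS10, was at 33.3, 25.2, 15.8 and 6.45 in far stroma, at 25.9, 37.5 and 28.98 in close stroma, and at 42.2, 76.4, 135 and 82.4 in parenchyma. Parenchyma lay above all stromal samples (2.10 ± 0.47, limma adjusted p = 0.00247, and 2.69 with heifers 3, 4 and 5 alone). ADAMTS18, an enzyme needed in mouse for normal growth of the mammary ducts, was at 44.04, 19.2, 36.1 and 11.3 in far stroma, at 47.9, 38.4 and 59.8 in close stroma, and at 79.9, 47.2, 69.5 and 86.97 in parenchyma. Parenchyma and far stroma did not overlap for it (1.47 ± 0.39, limma adjusted p = 0.00772). ADAMTS17 averaged 17.2 ± 8.08 and 37.5 ± 4.49 (1.18 ± 0.33, limma adjusted p = 0.0105). ADAMTS7 and ADAMTS12, which cut cartilage oligomeric matrix protein, did not pass (0.34 ± 0.31 and -1.42 ± 0.59, limma adjusted p = 0.377 and 0.0624), nor did ADAMTS10 (-0.02 ± 0.23) and ADAMTS19 (-1.09 ± 0.66). ADAMTS12 passed without the far stroma of heifer 4 (-1.96, adjusted p = 0.0085) and with the heifer as a block (0.0208). It also passed with edgeR and DESeq2 (0.0216 and 0.00328). ADAMTS7 passed with library-total scaling (0.045), and ADAMTS19 without the far stroma of heifer 5 (-1.67, adjusted p = 0.0356).

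**Figure D4:**
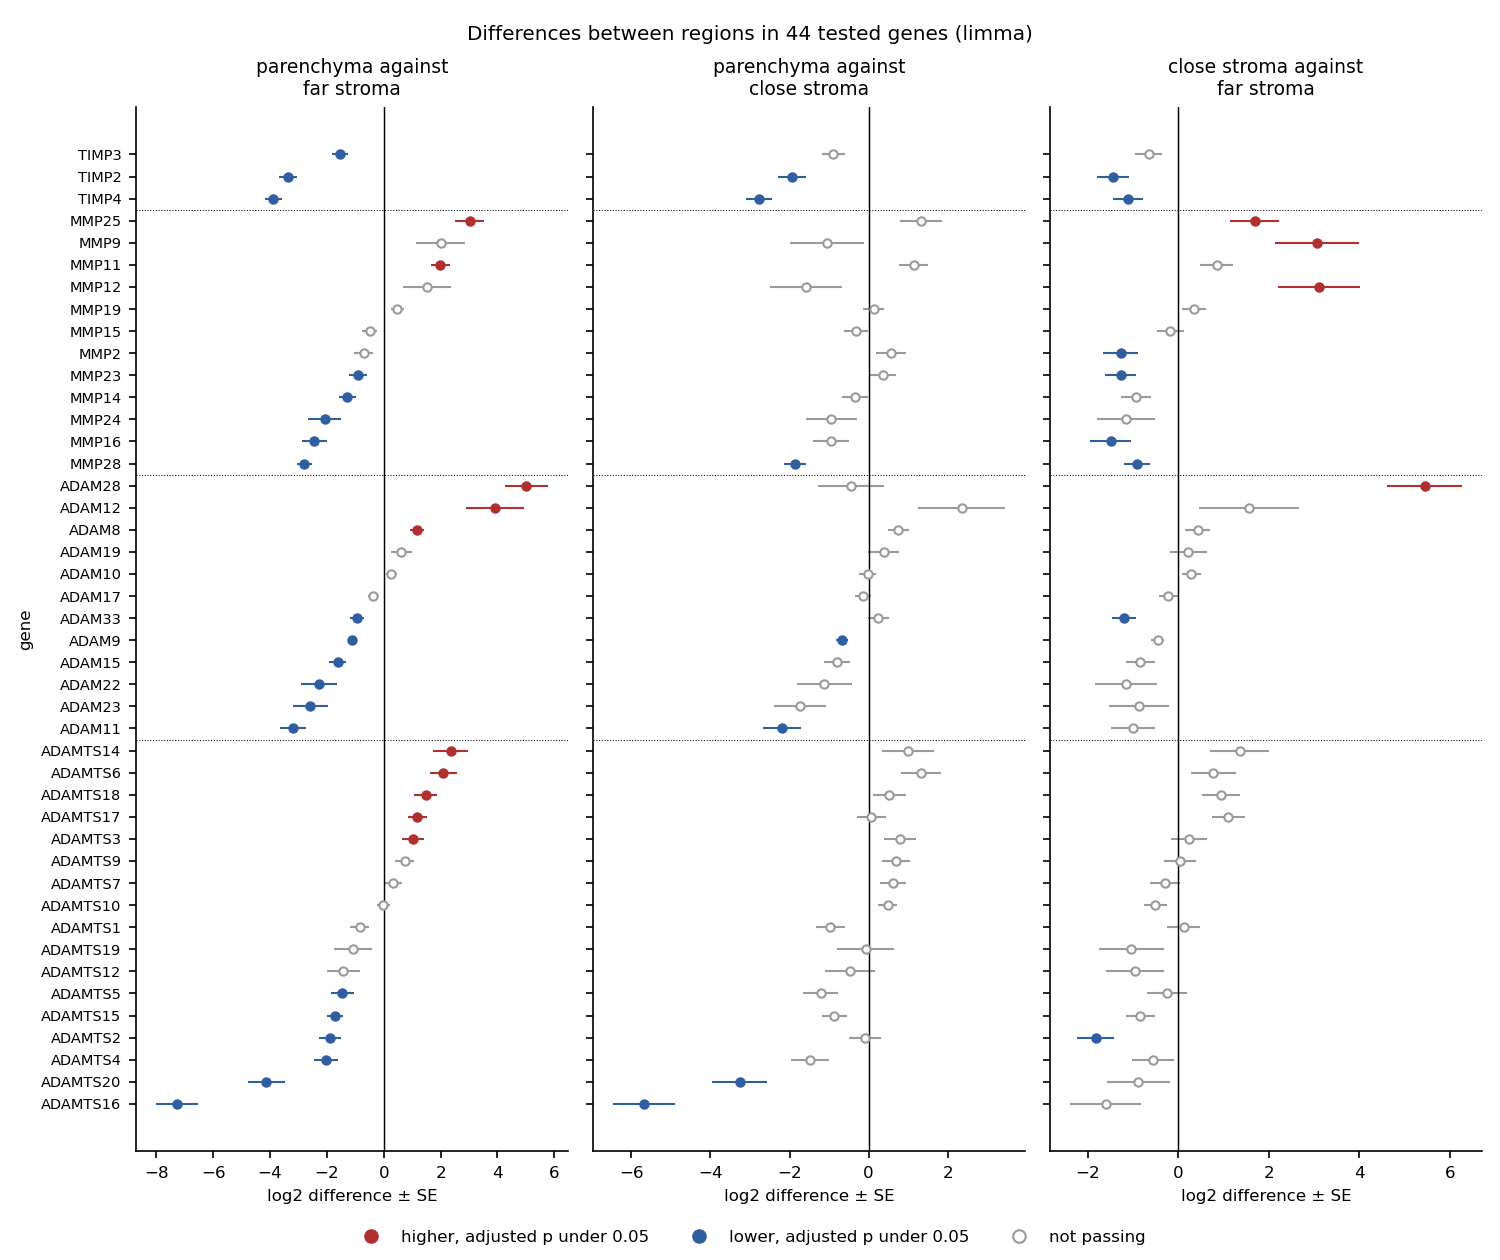
Log2 difference with its standard error (horizontal axes, on the log2(value + 1) scale, with a range of its own in each panel) of the 44 tested genes in the 3 comparisons. Filled red points are higher and filled blue points lower at a limma adjusted p under 0.05, and open grey points did not pass. The panels hold 10 higher and 20 lower genes, 0 and 7, and 4 and 8, from left to right. The comparisons share samples, so the panels are not independent.

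Against close stroma, fewer members were called. By limma 7 of 44 genes were lower in parenchyma (15.9%, against 5.1% of all genes tested) and 0 were higher (against 2.02%, and 7.12% in either direction). At an unadjusted limma p under 0.05, 4 were higher and 14 lower, beside 3459 of all 14596 genes in either direction. edgeR also called 0 higher and 7 lower (2.21% and 6.02% of all genes), DESeq2 called 4 higher and 12 lower (5.79% and 8.33%), and limma with the heifer as a block called 1 higher and 11 lower (against 3.4% and 6.53% of all genes with the block). The 7 genes were ADAMTS16 (-5.68 ± 0.79, limma adjusted p = 0.0011), ADAMTS20, TIMP4 (-2.78 ± 0.33, 3.71e-04), ADAM11 (-2.19 ± 0.49, 0.0187), TIMP2 (-1.93 ± 0.35, 0.00614), MMP28 (-1.87 ± 0.28, 0.00159) and ADAM9 (-0.67 ± 0.15, 0.0188). ADAMTS20 was at least 17.8-fold lower against the floor. Each was also lower against far stroma, a comparison that shares the parenchyma samples. ADAMTS16, TIMP4, TIMP2 and MMP28 passed under every setting tried, with ADAMTS16 at -4.92 without the close stroma of heifer 3 and -6.74 without that of heifer 4.

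The count against close stroma fell to 4 lower genes without the close stroma of heifer 3 or of heifer 5, and over all genes lower calls went from 744 to 326 and 484. Without the close stroma of heifer 3, ADAM11, ADAM9 and ADAMTS20 did not pass (adjusted p = 0.102, 0.102 and 0.0913). Without that of heifer 5 the values for ADAM9 and ADAMTS20 were 0.068 and 0.0553, and ADAM11 was also lost. ADAM11 also did not pass without the parenchyma of heifer 3 (-2.08, limma adjusted p = 0.0536), nor ADAM9 without that of heifer 4 (-0.64, 0.0592). These sizes were close to those with all samples (-2.19 and -0.67), and over all genes lower calls went from 744 to 483 and 476. TIMP3 did not pass against close stroma (-0.89 ± 0.30, limma adjusted p = 0.0901), although the 2 regions did not overlap, and passed with the heifer as a block (0.0126). With the block, ADAM23 (0.0267), ADAMTS1 (0.0341) and ADAMTS5 (0.0173) passed as lower and ADAMTS7 (0.0313) as higher. Further members whose values did not overlap, such as ADAM12 (2.36 ± 1.10, limma adjusted p = 0.218) and MMP11 (1.14 ± 0.36, 0.0789), did not pass by limma. The 4 genes that DESeq2 called higher were MMP11 (adjusted p = 0.017), ADAMTS6 (0.0238), ADAM8 (0.0278) and MMP25 (0.0387). In all, 17 of 44 genes did not overlap between the 2 regions (38.6%, against 26.2% of all genes).

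Close stroma against far stroma gave 4 higher and 8 lower members, which is 9.09% and 18.2% of 44, against 11% and 5.99% of all genes tested (27.3% and 17% in either direction). Values of the 2 regions did not overlap for 17 of the 44 genes (38.6%), against 23.3% of all genes. Of the 44, 10 were lower in close stroma without overlap and 7 higher, against 9.17% and 14.2% of all genes tested. ADAM28 was higher, and ADAM33 lower (-1.19 ± 0.26, limma adjusted p = 0.00658), under every setting tried. The other 3 higher genes were MMP12 (3.11 ± 0.91, limma adjusted p = 0.0346), MMP9 (3.06 ± 0.93, 0.0414) and MMP25 (1.69 ± 0.54, 0.0484). With the heifer as a block MMP12 differed by 2.52 and MMP9 by 2.25, and MMP12 by 2.43 without the close stroma of heifer 4 and MMP9 by 2.46 without the far stroma of heifer 1. The other 7 lower genes were ADAMTS2 (-1.82 ± 0.41, 0.00896), MMP16 (-1.49 ± 0.46, 0.0451), TIMP2 (-1.44 ± 0.35, 0.0143), MMP2 (-1.27 ± 0.38, 0.0371), MMP23 (-1.27 ± 0.34, 0.0217), TIMP4 (-1.10 ± 0.33, 0.0409) and MMP28 (-0.91 ± 0.28, 0.04). Each of the 8 was lower in close stroma in 3 of 3 heifers, although MMP16 and TIMP4 overlapped between the regions. MMP25 was higher in 2 of 3 heifers and overlapped. MMP23 was at 398, 427, 327 and 264.5 in far stroma, at 239.7, 116 and 107 in close stroma and at 282, 116, 163 and 222 in parenchyma.

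These counts rested on single libraries and on the scaling. Without the close stroma of heifer 4, whose column name ends in a letter that the labels do not explain, 1 gene was higher and 1 lower, and the same numbers were left without that of heifer 5. Over all genes, lower calls went from 875 to 176 and 240 in these settings and higher calls from 1600 to 1018 and 1083. Without the close stroma of heifer 4 the adjusted p was 0.0595 for ADAMTS2, 0.0871 for TIMP2, 0.113 for MMP23, 0.147 for MMP2, 0.179 for MMP9, 0.185 for MMP28, 0.189 for MMP12, 0.198 for MMP25, 0.213 for TIMP4 and 0.225 for MMP16. Without that of heifer 5 these 10 values ran from 0.0557 for ADAMTS2 to 0.189 for MMP28. Without the close stroma of heifer 3, by contrast, 12 genes were lower, while lower calls over all genes went from 875 to 1692. Among far stroma libraries, leaving out heifer 4 gave 1 higher and 5 lower genes, heifer 3 gave 3 and 5, heifer 1 gave 2 and 8, and heifer 5 gave 2 and 6. Without the parenchyma of heifer 5, which enters through the shared spread and the filter on region means, 2 were higher and 7 lower of 45 tested. With edgeR 3 genes were higher and 5 lower (10.8% and 4.13% of all genes). With library-total scaling 6 were higher and 3 lower (19.2% and 2.06%), so that 66.7% of the called genes were higher in place of 33.3%, while the median of all genes moved from 0 to 0.35. With the heifer as a block MMP2 (0.0698), MMP25 (0.0604) and MMP28 (0.0655) did not pass, while ADAMTS10 (0.0337) and ADAMTS17 (0.0268) did. MMP14 stood at 0.0692 without the block and just under the threshold with it.

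Within each of heifers 3, 4 and 5, close stroma lay between far stroma and parenchyma for 13 of the 44 genes in all 3 animals, among them the 3 TIMP genes, MMP11, MMP28, ADAM8, ADAM9, ADAM11 and ADAMTS16. It was highest in all 3 animals for ADAM10 and MMP12, and lowest in all 3 for ADAMTS7 and ADAMTS10. The other 27 genes had no uniform order. Such orders were not counted over all genes, so whether 13 of 44 is a usual share is not known.

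The close stroma libraries differed among themselves. Heifer 3 had the highest close stroma value for 29 of 44 genes, heifer 4 for 9 and heifer 5 for 6. These ranks were not counted over all genes, so they cannot be read as particular to the members. TIMP2 was at 15181 in heifer 3 against 6173 and 6513, ADAMTS2 at 1843 against 545 and 593, and MMP16 averaged 90.5 ± 64.0 in this region. ADAM28 ran the other way, at 6.71 in heifer 3. Heifer 3 also had the largest sums of adipocyte and fibroblast markers in close stroma (155166 and 167597) and the smallest luminal sum (9988). In far stroma, ADAM12 ran from 1.61 to 179, and the fibroblast sum there was 311586, 371161, 255449.6 and 177292 in heifers 1, 3, 4 and 5. In parenchyma, heifer 1 had the highest value for 20 of 43 genes with reads there and heifer 5 for 14, against 5 and 4 in heifers 3 and 4. The ranks in parenchyma were not counted over all genes either.

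Genes that act beside these enzymes were counted from lists chosen for their roles. Of 25 measured activators, cofactors and other inhibitors, 7 were higher and 8 lower in parenchyma than in far stroma, shares near the 26.1% and 24% of all genes. RHBDF2, the iRhom that carries ADAM17 to the cell surface in leukocytes, averaged 173 in far stroma, 316 in close stroma and 511 in parenchyma (1.58 ± 0.18, limma adjusted p = 1.71e-05), while RHBDF1 did not pass (-0.34 ± 0.18, adjusted p = 0.134). Among the tetraspanins that guide ADAM10, TSPAN5 (1.49 ± 0.32) and TSPAN33 (2.04 ± 0.21) were higher, and TSPAN15 (-0.93 ± 0.23) and TSPAN17 (-0.74 ± 0.17) lower. BSG, also called EMMPRIN and known as an inducer of MMPs, averaged 23876 in far stroma and 4492 in parenchyma (-2.38 ± 0.37, limma adjusted p = 1.88e-04). PCSK5, a convertase that can open protease precursors, differed by -2.83 ± 0.41, and FURIN, the main convertase of membrane-type MMPs, did not pass (-0.19 ± 0.17, adjusted p = 0.377).

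Of 12 measured substrates shed by ADAM10 or ADAM17, 8 were higher in parenchyma than in far stroma and L1CAM was lower. Of all genes tested, 26.1% were higher and 24% lower. The median log2 difference was 1.95 over the list. Amphiregulin (AREG) averaged 5.10 in far stroma, 87.9 in close stroma and 189 in parenchyma (5.00 ± 0.65, limma adjusted p = 4.71e-05), and E-cadherin (CDH1), an epithelial adhesion molecule, 94.5, 4484 and 5882 (5.98 ± 0.35). Of 10 measured matrix substrates, 7 were lower, against 24% of all genes, and ACAN, VCAN and COL3A1 did not pass, with a median of -1.75. Elastin (ELN) averaged 33697 in far stroma and 4993 in parenchyma (-2.79 ± 0.60, limma adjusted p = 0.00202), and versican (VCAN) did not pass (1194 against 1067, adjusted p = 0.865). All 4 tested genes of procollagen C-propeptidases and their enhancers were lower, against 24% of all genes. The largest difference was that of PCOLCE2, an enhancer of BMP1, at 10831 against 132 (-6.39 ± 0.41). Among 8 measured ADAMTS-like genes and relatives, which have no protease domain in most cases, 2 were higher and 3 lower, against the same 26.1% and 24%. Papilin (PAPLN) averaged 29.97 in far stroma, 595 in close stroma and 898 in parenchyma (4.85 ± 0.42, limma adjusted p = 1.57e-06), and ADAMTSL3 differed by -2.82 ± 0.36.

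Low counts kept 6 members out of the tests, with highest region means of 1.94 for MMP13 up to 9.54 for MMP17. MMP7, or matrilysin, which glandular epithelium secretes, had 0 reads in far stroma, 21 in close stroma and 38 in parenchyma, which made it at least 7.32-fold and at least 8.92-fold higher there against the floor. MMP13, or collagenase 3, had 0, 1 and 9 reads. MMP17 averaged 9.54 ± 3.61 in far stroma and 1.91 ± 1.28 in parenchyma, without overlap, and ADAMTS8 1.09 ± 1.27 and 8.28 ± 7.999. ADAM32 and MMP27 had means of at most 3.31 and 5.74 in any region.

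Several members lie next to each other in the genome, and whether such neighbours share a pattern was not tested. By the gene order of RefSeq's ARS-UCD2.0 assembly, used here for order only, ADAMTS1 and ADAMTS5 are neighbours, as are ADAMTS8 and ADAMTS15, MMP12 and MMP13, and ADAM9 and ADAM32. ADAMTS15 was lower in parenchyma than in far stroma, whereas its neighbour ADAMTS8, too low to test, had 4 reads in far stroma and 42 in parenchyma. Of the parenchyma reads of ADAMTS8, 26 came from heifer 1, and 10, 4 and 2 from heifers 3, 4 and 5. Its values overlapped between the 2 regions. Some members overlap other genes. The sources used here do not say whether counting used strand, so reads could be shared. TIMP4 lies over SYN2 and TIMP3 over SYN3, 2 synapsin genes that averaged 40.1 and 11.9 over all samples beside 1383 and 2440 for the inhibitors. ADAMTS6 overlaps CWC27, a splicing factor gene, which averaged 130 beside 46.3 and did not pass in parenchyma against far stroma (-0.33 ± 0.26, limma adjusted p = 0.305).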

How the data were processed

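The values analysed are a signal, normalised counts in the words of the column headers that the authors deposited. Tools named by the submitters' processing notes were cutadapt, STAR, HTSeq and DESeq2, with no version, and reads were placed on build ARS-UCD1.2. In each sample, at least 99.99% of values came out as whole reads, to within 0.01, and the reads were recovered on that basis. Library totals ran from 7274474 to 11156909 reads, and the precision of low genes is limited by their few reads. Log2(value + 1) was fitted for the 3 regions together with limma (3.58.1, R 4.3.3) and a variance trend, for the 14596 genes with a highest region mean of at least 10. A call is a Benjamini-Hochberg adjusted p under 0.05 over all of them. Differences on this scale understate the change of low genes. On the recovered reads, edgeR (4.0.16) and DESeq2 (1.42.0) served as alternatives.

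Regions with the same number come from the same animal, which pairs them. Deviations from region means correlated at 0.117 to 0.383 within 10 pairs from 1 heifer, and at -0.349 to 0.224 in 30 pairs from different heifers. The main fit had no term for the heifer. Members and lists were chosen with earlier results of these data known. Values in each sample are given for 13 genes of a set list (MMP2, MMP9, MMP11, MMP14, TIMP2 to TIMP4, ADAM10, ADAM12, ADAM17, ADAMTS1, ADAMTS2 and ADAMTS5) and, in each comparison and direction, for up to 4 called members with the largest difference, no overlap and a higher mean of at least 50. The roles of ADAM proteins come from general knowledge, and no sequences were used here.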

Additional observations from a re-analysis of the deposited data

Results flagged for a closer look

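In the groups of 4 heifers, 4 values stood far from the other 3 of their group, by the size of the gap relative to the whole range. About 1 in 20 groups is marked in this way by chance, and 86 groups were examined. ADAM10 was at 1805 in the parenchyma of heifer 1, against 1061 to 1175 in the others. ADAMTS4 was at 1010.1 in the far stroma of heifer 4, against 239 to 361. MMP11 was at 14.4 in the far stroma of heifer 3, against 23.5 to 24.2. MMP14 was at 10344 in the parenchyma of heifer 5, against 4361 to 4543.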

How the results depend on the processing

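Of the calls among the 44 genes, 27 of 30 in parenchyma against far stroma, 4 of 7 in parenchyma against close stroma and 2 of 12 in close stroma against far stroma held in every setting in which the gene was tested. Library-total scaling gave 16 higher genes in parenchyma against far stroma and 3 lower genes in close stroma against far stroma. The latter count was 5 with heifers 3, 4 and 5 alone, with edgeR TMM and with edgeR RLE. In parenchyma against close stroma the heifer as a block gave 1 higher and 11 lower genes, and DESeq2 gave 4 and 12. Leaving out 1 library at a time gave 9 to 12 higher and 19 to 23 lower genes in parenchyma against far stroma, 0 higher and 4 to 9 lower against close stroma, and 1 to 4 higher and 1 to 12 lower in close stroma against far stroma. Beyond the changes given with the results, the replicate block changed no other call. The causes of these changes were not tested.

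Some differences changed sign, and none of these passed in the main setting or in the setting that turned it. For parenchyma against far stroma, library-total scaling gave 0.06 for ADAM17 and 0.40 for ADAMTS10, which was 0.05 with heifers 3, 4 and 5 alone and -0.16 to 0.15 when 1 library was left out. For parenchyma against close stroma, ADAM10 was 0.06 with library-total scaling and 0.02 with edgeR RLE and DESeq2, ADAMTS17 was -0.08 with the block, and ADAMTS19 was 0.01 with library-total scaling. Leaving out 1 library gave -0.19 to 0.06 for ADAM10, -1.69 to 0.37 for ADAM28, -0.02 to 0.14 for ADAMTS17, -0.70 to 0.30 for ADAMTS19, -0.40 to 0.48 for ADAMTS2, -0.60 to 0.06 for MMP15 and -0.06 to 0.27 for MMP19. For close stroma against far stroma, library-total scaling gave 0.12 for ADAM17, 0.09 for ADAMTS5, 0.07 for ADAMTS7 and 0.17 for MMP15, and ADAMTS5 was 0.02 with heifers 3, 4 and 5 alone. Leaving out 1 library gave -0.13 to 0.48 for ADAM19, -0.23 to 0.41 for ADAMTS1, -0.70 to 0.02 for ADAMTS5 and -0.54 to 0.11 for MMP15, and ADAMTS9 was at its lowest -0.02. The ratio of MMP9 to TIMP1 was not run.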
